A study of Homo sapiens with 42 samples.

Results

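B-lineage transcription factors are the proteins that commit a progenitor to the B-cell fate and carry it through the pro-B and pre-B stages. PAX5, EBF1, IKZF1, IKZF3, TCF3, IRF4, IRF8, POU2AF1, LEF1 and FOXO1 were followed as a group, chosen by symbol. All 10 were found in every table, among 57820 listed genes in the overexpression tables and 57793 in the knockdown tables. The measurements are RNA-seq read counts from 42 libraries of 5 human lines grown from acute lymphoblastic leukaemia of B-cell precursors, in which NSD2, a methyltransferase of histone H3 lysine 36 listed as WHSC1, was raised or lowered. Reh and 697 carried overexpressed EK mutant NSD2 (EK), overexpressed wild-type NSD2 (WT) or an empty vector (EV). RS4;11, RCH-ACV and SEM carried the NSD2 hairpin sh2, a second hairpin labelled sh5, or a non-targeting control (NT). Each arm had 2 replicates in Reh and 3 in the other lines. The labels do not say that replicates were separate cultures, so p-values measure the spread between these libraries, which may be technical.

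E2A (TCF3) and EBF1 start the B-lineage program, and EBF1 and PAX5 then hold it in place and switch on genes such as VPREB1. Ikaros (IKZF1) and Aiolos (IKZF3) are zinc-finger proteins that restrain pre-B cell growth, IRF4 and IRF8 are interferon regulatory factors that act with ETS proteins at the pre-B transition, and FOXO1 drives IL7R and the RAG genes. POU2AF1 is a coactivator of octamer-binding factors and LEF1 is a nuclear partner of beta-catenin.

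The promoters of IRF8 and IRF4 are shown because these 2 genes moved in opposite directions in SEM. The windows hold the 250 bases before and the 50 bases after the annotated start, from RefSeq on GRCh38.p14. IRF8 lies at chr16:85902580-85902879 on the plus strand, the first listed of its 2 windows, and IRF4 at chr6:391502-391801 on the plus strand. Capitals mark the Ikaros core TGGGAA, read here on the opposite strand.
IRF8: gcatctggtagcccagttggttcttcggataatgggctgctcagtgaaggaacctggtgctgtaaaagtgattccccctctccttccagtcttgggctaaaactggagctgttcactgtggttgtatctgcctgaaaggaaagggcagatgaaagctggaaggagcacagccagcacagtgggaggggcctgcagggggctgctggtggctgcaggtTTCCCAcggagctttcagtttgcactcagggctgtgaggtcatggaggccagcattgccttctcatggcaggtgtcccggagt
IRF4: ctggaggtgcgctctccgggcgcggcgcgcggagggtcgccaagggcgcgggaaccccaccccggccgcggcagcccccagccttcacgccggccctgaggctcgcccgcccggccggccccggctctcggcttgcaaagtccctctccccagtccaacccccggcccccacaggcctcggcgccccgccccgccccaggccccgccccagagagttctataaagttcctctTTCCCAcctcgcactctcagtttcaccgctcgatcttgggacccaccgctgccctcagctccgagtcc
The match begins 33 bases before the start in IRF8 and 18 bases before it in IRF4. On either strand TGGGAA occurred in 24.0% of all 35116 windows, and among the 8 members with a window it occurred in 5, EBF1, IKZF1, IRF4, IRF8 and LEF1. None held the octamer ATTTGCAT, the forkhead core TGTTTAC or the LEF core CTTTGAT, which occurred in 1.77%, 3.42% and 2.62% of all windows. The E box CANNTG was in 5 of the 8, against 68.7% of all windows. A member was counted if any of its windows matched, and the 8 members have 11 windows. Counts of members and shares of windows are therefore in different units. A match is only a run of letters, and its absence says nothing of binding.

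NSD2 itself followed the labels. In Reh it measured 1847 and 1530 CPM (reads scaled to library size with TMM factors) in EK and 1733 and 1627 CPM in WT, against 577 and 581 CPM in EV. In 697 the CPM values were 1472 to 2129 in EK and 1697 to 2330 in WT, against 162 to 227 in EV. All knockdown libraries lay below all NT libraries of their line, with 156 to 255 CPM in sh2 and 141 to 211 CPM in sh5 of RS4;11, against 289 to 323 CPM in NT. RCH-ACV had 139 to 251 CPM in sh2 and 154 to 224 CPM in sh5, against 330 to 352 CPM in NT. SEM had 166 to 180 CPM in sh2 and 133 to 147 CPM in sh5, against 331 to 362 CPM in NT. By edgeR's quasi-likelihood test, with p adjusted over all genes and called under 0.05, NSD2 was called lower in SEM (log2 change −0.99 ± 0.06 SE with sh2, adjusted p = 8.92e-09; −1.28 ± 0.06 with sh5, adjusted p = 1.87e-09). The same test gave adjusted p = 0.118 and 0.164 for sh2 and sh5 in RS4;11, and 0.0952 and 0.508 in RCH-ACV.

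The lines started from different levels of these factors. FOXO1 averaged 332 ± 28.7 CPM in Reh EV (SD, n = 2) and 5.74 ± 0.65 CPM in SEM NT (SD, n = 3), with RCH-ACV, 697 and RS4;11 between 53.8 and 73.7 CPM. RCH-ACV and 697 overlapped in that order, while the other neighbours did not. IRF8 ran the other way, at 135 ± 2.84 CPM in SEM NT, 30.0 ± 1.36 in RS4;11 NT, 20.1 ± 2.89 in RCH-ACV NT, 16.5 ± 0.42 in 697 EV and 4.44 ± 1.22 in Reh EV. Only RCH-ACV and 697 overlapped.

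IRF4 was highest in RS4;11 NT (238 ± 13.6 CPM) and lowest in Reh EV (9.27 ± 3.80 CPM). IKZF3 was highest in 697 EV (23.3 ± 3.88 CPM), near 3 CPM in SEM NT and RS4;11 NT, and represented by at most 4 reads in any control library of Reh or RCH-ACV. PAX5, the factor that fixes B-cell identity, ran from 429 ± 23.2 CPM in RS4;11 NT to 598 ± 79.3 CPM in 697 EV, and each neighbour in its order overlapped the next. Per kilobase of annotated exon (GENCODE v29), LEF1 and TCF3 had higher control levels than the other 8 genes in every line, at 81.9 to 139 and 74.3 to 106 CPM per kb. The levels of LEF1 carry a limit, as LEF1-AS1 overlaps it on the other strand (11.3 to 31.9 CPM) and the sources used here do not give the strand setting of the counting. PAX5, IKZF1 and POU2AF1 also have an antisense gene over their exons in that annotation. No level was available under the names of those antisense genes.

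**Figure D1:**
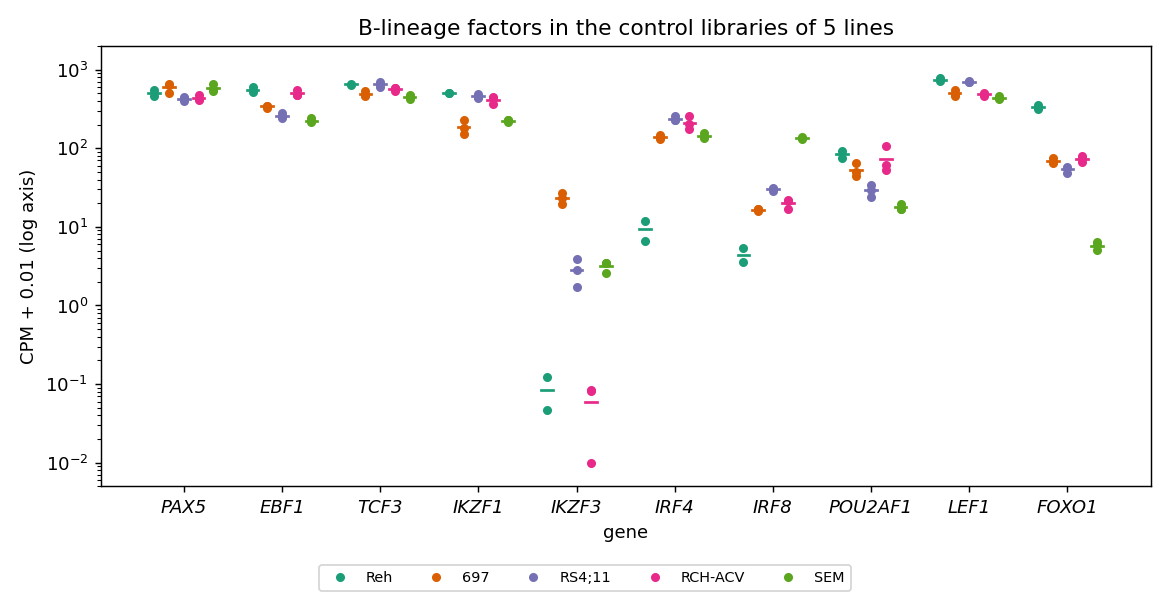
Level of each gene in the control libraries (EV in Reh and 697, NT in the others), as CPM + 0.01 on a log axis. Points are libraries and bars are means. FOXO1 is highest in Reh and lowest in SEM, and IRF8 is highest in SEM and lowest in Reh.

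Without a replicate block, no member was called where NSD2 was overexpressed. In Reh, 0 of 9 tested members were called in EK versus EV (0.213% of all genes were) and 0 of 9 in WT versus EV (0.219%). In both, 0 had an unadjusted p under 0.05 by edgeR, against 982 and 793 of 15972 genes. DESeq2 called 0 in both (1.21% and 0.696% of all genes). IKZF3 fell under the count filter there. Apart from IRF4 and IRF8, log2 changes in Reh lay between −0.06 and 0.12 with standard errors of 0.10 to 0.20. IRF4 had 2.98 and 8.86 CPM in EK and 4.65 and 13.0 CPM in WT, against 6.58 and 11.9 CPM in EV. The arms overlapped and replicate 1 was the lower one in each, while EK was below EV within each replicate number.

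In 697, 0 of 10 members were called by limma in EK versus EV (0.172% of all genes) and 0 of 10 in WT versus EV (0.19%), with 1 member in each at an unadjusted p under 0.05. The edgeR fit of the recovered reads called 0 members in both comparisons (0.141% of all genes in EK versus EV and 0.164% in WT versus EV). IRF8 had 636, 531 and 633 normalized counts in EK and 584, 705 and 727 in WT, against 812, 756 and 793 in EV. All 6 overexpressing libraries lay below the 3 EV libraries. On the log2(normalized count + 1) scale IRF8 changed by −0.40 ± 0.14 with EK (limma adjusted p = 0.882) and −0.23 ± 0.14 with WT (limma adjusted p = 1.00). IRF4 had 5185, 5797 and 5434 normalized counts in WT, against 6412, 6928 and 6616 in EV, again without overlap, and changed by −0.28 ± 0.10 (limma adjusted p = 1.00). Over all genes tested, 8.36% of genes did not overlap between EK and EV and 6.87% between WT and EV. Between EK and WT, 0 of 9 members were called in Reh by edgeR (0% of all genes) and by DESeq2 (0.00556%). In 697, 0 of 10 were called by limma and by edgeR on recovered reads (0% of all genes in both). By edgeR in Reh and by limma in 697, 0 members had an unadjusted p under 0.05.

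In SEM most of the group changed with sh2. With that hairpin 9 of 10 members were called, 1 higher and 8 lower, where 27.9% of all genes were called (13.5% higher and 14.4% lower). With sh5, 5 of 10 were called, 1 higher and 4 lower, where 21.3% of all genes were (11.1% higher and 10.2% lower). The median log2 change over the members was −0.36 with sh2 and −0.16 with sh5, against 0.0057 and −0.0074 over all genes. Both hairpins share the NT libraries. In these bulk libraries fewer cells of a type and less RNA per cell cannot be told apart.

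**Figure D2:**
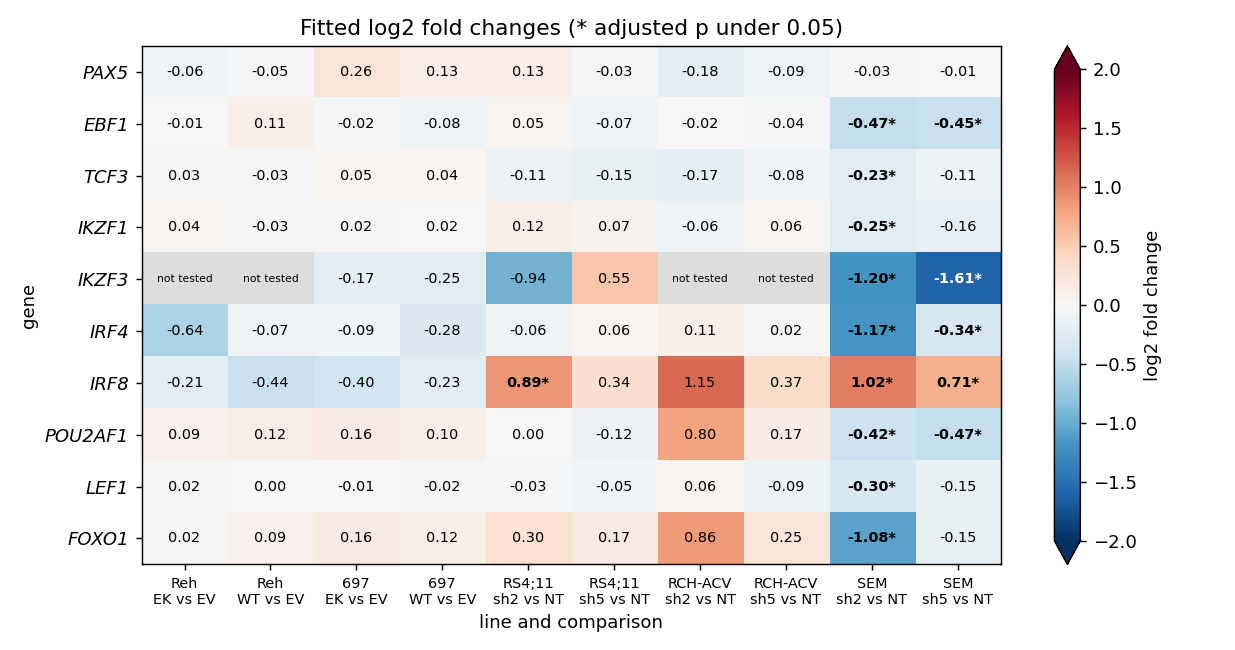
Fitted log2 fold change of each gene (rows) in each comparison with the control arm (columns), with asterisks for an adjusted p under 0.05 and grey where the gene was not tested. Calls lie in the SEM columns, where IRF8 is higher and 8 other genes are lower with sh2, and in RS4;11 sh2, where IRF8 is higher.

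IRF8, which in B-cell precursors acts with PU.1 and IRF4, was the member that rose. In SEM it had 265, 273 and 285 CPM in sh2 and 223, 226 and 219 CPM in sh5, against 132, 136 and 137 CPM in NT. The 3 arms did not overlap. It rose 2.02-fold with sh2 (log2 1.02 ± 0.05, edgeR adjusted p = 1.22e-09) and 1.64-fold with sh5 (log2 0.71 ± 0.05, adjusted p = 1.55e-07), and sh2 exceeded sh5 by 0.30 ± 0.05 on the log2 scale (adjusted p = 6.75e-04). NSD2 averaged 173 ± 7.24 CPM in sh2 and 142 ± 8.16 CPM in sh5 (SD, n = 3 each), so the arm with more IRF8 also had more NSD2. In the order of the IRF8 values, NSD2 was 166, 173 and 180 CPM in sh2, rising with IRF8. In sh5 it was 133, 146 and 147 CPM, without such an order.

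In RS4;11 IRF8 had 64.8, 60.2 and 43.4 CPM in sh2 and 42.4, 38.3 and 34.4 CPM in sh5, against 31.2, 28.5 and 30.2 CPM in NT. Every knockdown library was above every NT library. It was the 1 of 10 members called with sh2 (1.67% of all genes were called), rising 1.85-fold (log2 0.89 ± 0.13, edgeR adjusted p = 0.0161). With sh5 0 of 10 were called (0.478% of all genes), and IRF8 changed by 0.34 ± 0.13 (edgeR adjusted p = 0.358). By edgeR 1 member had an unadjusted p under 0.05 with sh5 (1932 of 17165 genes did), and DESeq2 called 0 (1.51% of all genes). NSD2 in these arms overlapped, at 190 ± 56.8 CPM in sh2 and 173 ± 35.5 CPM in sh5 (SD, n = 3 each). In the order of the IRF8 values it was 158, 156 and 255 CPM in sh2 and 168, 141 and 211 CPM in sh5. In each of these arms the library with the most NSD2 had the least IRF8. The sh2 call was lost without any 1 of the NT libraries or of sh2 replicates 1 and 2 (adjusted p 0.0513 to 0.0819, log2 change 0.78 to 0.91). In those fits 0.0636% to 0.254% of all genes were called, against 8.94% without sh2 replicate 3.

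In RCH-ACV IRF8 had 70.5, 37.4 and 23.4 CPM in sh2 and 33.3, 21.9 and 22.5 CPM in sh5, against 22.1, 21.4 and 16.8 CPM in NT. The sh2 libraries lay above NT but were far apart from each other. In the same order NSD2 was 139, 203 and 251 CPM in sh2 and 154, 224 and 210 CPM in sh5. Within each of these arms, libraries with less NSD2 had more IRF8. Whether IRF8 follows the level of NSD2 was not tested. The log2 change was 1.15 ± 0.34 with sh2 (edgeR adjusted p = 0.128) and 0.37 ± 0.34 with sh5 (adjusted p = 1.00). Without sh2 replicate 1 the sh2 value was 0.63 (adjusted p = 0.338), and without sh2 replicate 3 it was 1.45 (adjusted p = 0.0254). These fits called 0.405% and 3.4% of all genes.

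**Figure D3:**
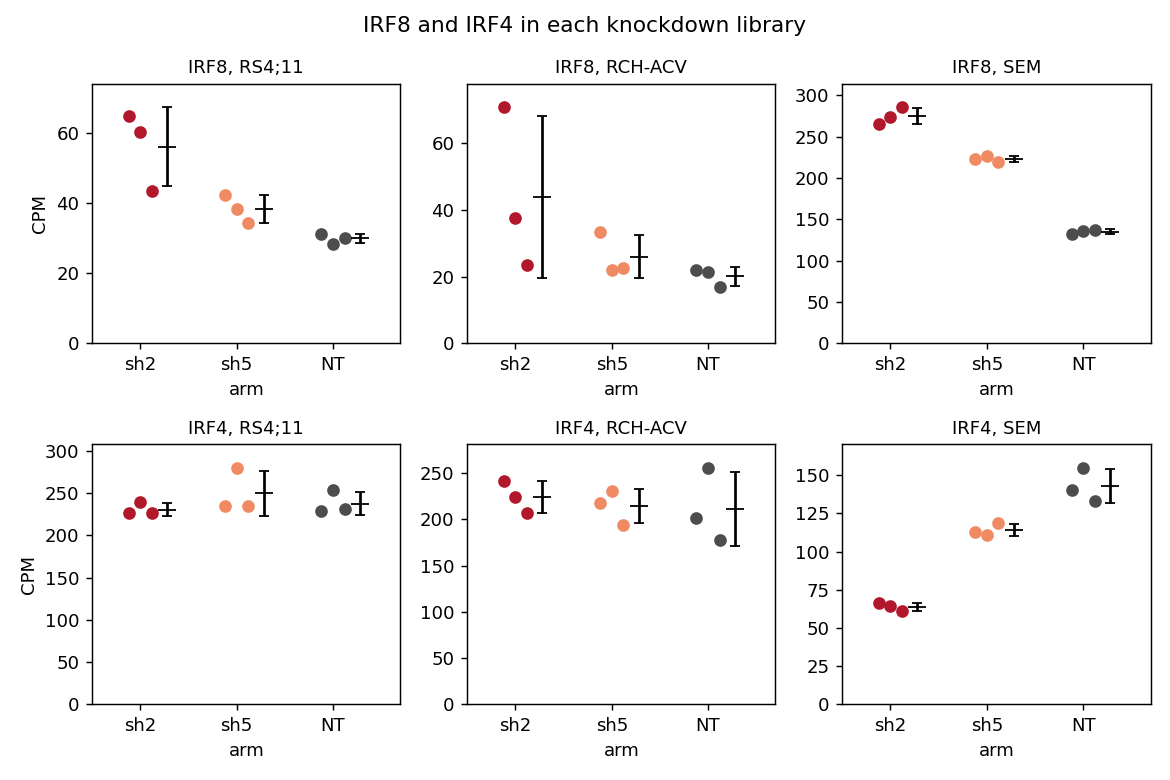
IRF8 (top) and IRF4 (bottom) in CPM in each library of the 3 knockdown lines, with the mean and SD beside the points. IRF8 is higher in sh2 than in NT in each line, while IRF4 libraries of sh2 and sh5 are below NT in SEM and overlap NT in RS4;11 and RCH-ACV.

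Across the 3 knockdown lines in 1 joint edgeR fit, the mean IRF8 change with sh2 was 1.03 ± 0.14 (adjusted p = 2.69e-05), and that with sh5 was 0.48 ± 0.14 (adjusted p = 0.0472). The members called for that mean were 2 of 10 with sh2, IRF8 and IRF4 (15% of all genes), and 1 of 10 with sh5 (5.11%). The sh5 call was lost without any 1 NT or sh5 library of RS4;11 or SEM, or without RCH-ACV NT replicate 2 or 3 or sh5 replicate 1 (adjusted p 0.0344 to 0.107 over all single omissions). A difference in the IRF8 change between lines was not detected (adjusted p = 0.878 with sh2 and 0.948 with sh5).

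**Figure D4:**
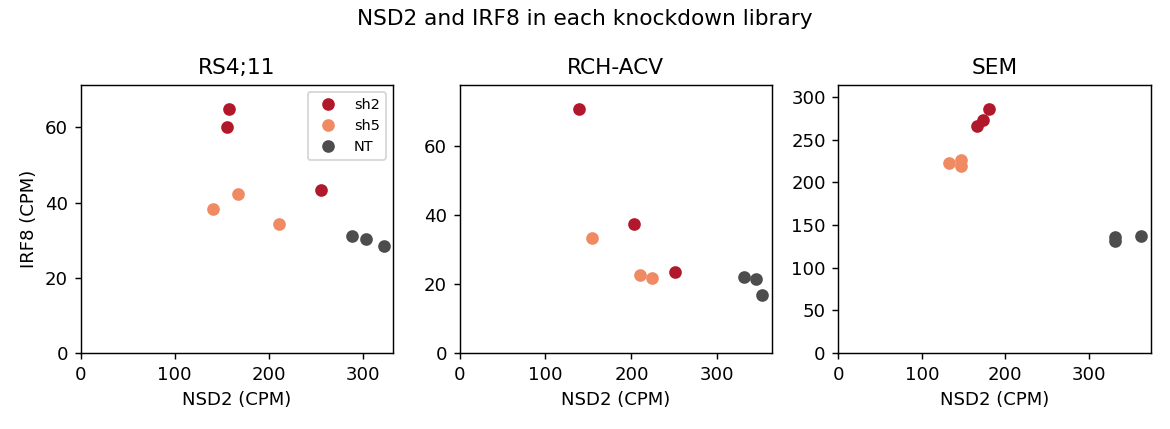
IRF8 against NSD2, both in CPM, in each library of the knockdown lines. NT libraries have the most NSD2 in each line. In SEM sh5 has less NSD2 than sh2, 133 to 147 against 166 to 180 CPM, and also less IRF8. Within each hairpin arm of RCH-ACV, libraries with less NSD2 have more IRF8.

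Markers of other cell types moved beside IRF8. Those of myeloid cells, which also use IRF8, were higher in SEM. The summed level of 10 such markers was 35.2 to 50.9 CPM in sh2 and 43.8 to 57.3 CPM in sh5, against 14.6 to 21.4 CPM in NT. Of the 3 that could be tested, CSF1R and ITGAM were called higher with both hairpins and LYZ with sh5, while ELANE and FCGR3A had no read in any SEM library. CSF1R, the receptor for macrophage colony-stimulating factor, averaged 40.4 ± 7.44 CPM in sh2 and 43.9 ± 4.77 CPM in sh5, against 16.0 ± 3.04 CPM in NT (SD, n = 3 each). The summed level of 9 stromal and epithelial markers was 154 to 162 CPM in sh2 and 143 to 166 CPM in sh5, against 105 to 128 CPM in NT. Of the 2 that could be tested PDGFRB was called higher with both hairpins, and the median log2 change of the 2 was 0.16 with sh2 and −0.066 with sh5. The T and NK cell sum was 77.9 to 82.1 CPM in sh2 and 80.8 to 98.1 CPM in sh5, against 86.4 to 102 CPM in NT, with NKG7 called lower with sh2. The erythroid and megakaryocytic sum was 2.09 to 2.85 CPM in sh2 and 1.98 to 2.71 CPM in sh5, against 2.91 to 4.12 CPM in NT, with ITGA2B called lower with sh5. The part of these markers in the IRF8 result was not tested. In RS4;11 the summed level of the myeloid markers was 10.6 to 11.9 CPM in sh2, against 9.77 to 11.1 CPM in NT. The sum of 8 erythroid and megakaryocytic markers was 4.83 to 10.7 CPM there in sh2, against 23.6 to 26.6 CPM in NT, with ITGA2B, the 1 that could be tested, called lower (−1.64 ± 0.23, edgeR adjusted p = 0.0191). In RCH-ACV the myeloid sum was 12.7 to 18.4 CPM in sh2, against 21.3 to 26.4 CPM in NT. The T and NK cell sum there was 134 to 274 CPM in sh2, against 96.0 to 132 CPM in NT. Of the 3 T and NK markers that could be tested there, 0 were called with sh2 (1.37% of all genes were). The stromal and epithelial sum and the erythroid and megakaryocytic sum of that arm overlapped NT. SPI1, which encodes the ETS partner PU.1, differed by 0.08 ± 0.17 with sh2 and 0.20 ± 0.17 with sh5 in SEM (edgeR adjusted p = 0.779 and 0.465).

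IRF4, which drives pre-B cell differentiation and later the plasma cell program, fell in SEM. It had 66.0, 64.0 and 61.2 CPM in sh2 and 113, 111 and 119 CPM in sh5, against 141, 155 and 133 CPM in NT. The 3 arms did not overlap, and sh5 lay between sh2 and NT and its NSD2 was lower than that of sh2. The log2 change was −1.17 ± 0.06 with sh2 (edgeR adjusted p = 3.17e-09) and −0.34 ± 0.06 with sh5 (adjusted p = 0.00132), and sh2 was below sh5 by −0.84 ± 0.06 (adjusted p = 3.96e-07). Of 10 members, 3 were called between the hairpins in SEM (12.4% of all genes). IRF4 is also a plasma cell marker. The summed level of 4 other plasma cell markers in SEM was 358 to 413 CPM in sh2 and 374 to 389 CPM in sh5, against 409 to 468 CPM in NT. Among them MZB1 was called lower with both hairpins (−1.16 ± 0.06 and −0.78 ± 0.06, edgeR adjusted p = 2.30e-09 and 4.03e-07), and with sh2 in RS4;11 (−0.45 ± 0.09, adjusted p = 0.0319). Their part in the IRF4 result was not tested.

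The same gene in RS4;11 had 226, 239 and 227 CPM in sh2 and 235, 280 and 235 CPM in sh5, against 228, 253 and 231 CPM in NT. In RCH-ACV it had 241, 224 and 207 CPM in sh2 and 217, 231 and 194 CPM in sh5, against 202, 255 and 177 CPM in NT. The arms overlapped in both lines, with log2 changes of −0.06 ± 0.09 and 0.11 ± 0.15 for sh2 (edgeR adjusted p = 0.740 and 0.729). The sh2 change differed between the lines (adjusted p = 5.87e-06). That test called 3 of 10 members, IRF4, FOXO1 and IKZF3 (7.93% of all genes), and for IKZF3 it rests on RCH-ACV libraries of at most 12 reads.

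FOXO1 is the forkhead factor that IL7R expression depends on, and it was scarce in SEM. There it had 2.07, 3.29 and 2.90 CPM in sh2 and 4.46, 4.68 and 6.52 CPM in sh5, against 5.03, 5.87 and 6.32 CPM in NT. Only the sh2 libraries were apart from NT, with a log2 change of −1.08 ± 0.19 (edgeR adjusted p = 4.97e-04), against −0.15 ± 0.18 with sh5 (adjusted p = 0.617). The hairpins differed by −0.93 ± 0.19 (adjusted p = 0.00375). These levels rest on 81 to 110 reads per library in sh2 and 173 to 238 in NT.

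RCH-ACV had 145, 137 and 112 CPM of FOXO1 in sh2 and 97.7, 102 and 62.6 CPM in sh5, against 75.7, 78.6 and 66.9 CPM in NT. All sh2 libraries were above NT, in the direction opposite to SEM, with a log2 change of 0.86 ± 0.19 that missed the threshold (edgeR adjusted p = 0.0568). In RS4;11 the CPM values were 60.3, 79.0 and 62.9 in sh2 and 59.5, 73.4 and 51.0 in sh5, against 55.5, 58.2 and 47.7 in NT, a log2 change of 0.30 ± 0.15 for sh2 (adjusted p = 0.323). Blocking on replicate number, by which the RS4;11 libraries pair, the sh2 value was 0.30 ± 0.07 (adjusted p = 0.0101). The sh2 change of FOXO1 differed between the lines (adjusted p = 1.87e-04).

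Aiolos, encoded by IKZF3, was scarce outside 697. In SEM it had 1.53, 1.16 and 1.45 CPM in sh2 and 1.27, 0.828 and 1.04 CPM in sh5, against 3.43, 2.60 and 3.48 CPM in NT. Both knockdown arms lay below NT, by −1.20 ± 0.20 with sh2 (edgeR adjusted p = 3.61e-04) and −1.61 ± 0.21 with sh5 (adjusted p = 5.40e-05) on the log2 scale. The counts were 31 to 60 reads per knockdown library and 98 to 131 per NT library. RS4;11 split by hairpin, with 1.19, 1.13 and 2.05 CPM in sh2 and 3.67, 4.02 and 4.52 CPM in sh5, against 2.79, 1.69 and 3.85 CPM in NT.

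The RS4;11 arms overlapped between sh2 and NT, and the log2 change was −0.94 ± 0.30 (edgeR adjusted p = 0.128), or −0.95 ± 0.21 with the replicate block (adjusted p = 0.00829). Between sh2 and sh5 0 of 10 members were called in RS4;11 (0.577% of all genes). By edgeR 2 had an unadjusted p under 0.05 (2196 of 17165 genes did), and DESeq2 called 2 (1.96% of all genes). IKZF3 differed by −1.49 ± 0.30 there (adjusted p = 0.0506), or by −1.54 ± 0.21 with the block (adjusted p = 3.61e-04), and the block also called IRF8 (0.53 ± 0.09, adjusted p = 0.00357). In RCH-ACV, with 0 to 12 reads per library, IKZF3 was not tested within the line. The joint fit includes those libraries, and its difference between lines for sh2 (adjusted p = 0.0131) rests on RCH-ACV counts of 8, 12 and 1 reads in sh2, against 3, 0 and 4 in NT, since the SEM and RS4;11 values have the same sign. For sh5 the difference had an adjusted p of 0.0108, the 1 of 10 members called (1.75% of all genes). The adjusted p for sh2 was 0.0532 without RCH-ACV sh2 replicate 1 and 0.108 without replicate 2, and that for sh5 was 0.0511 without SEM sh5 replicate 2.

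**Figure D5:**
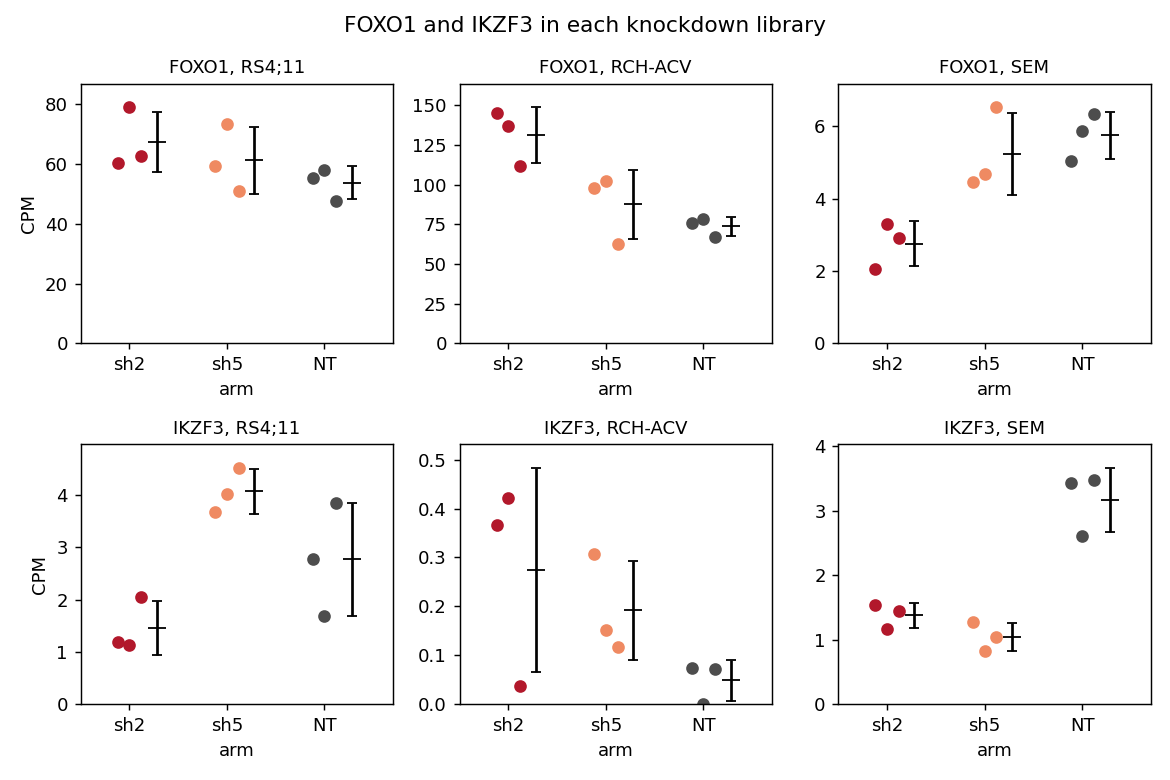
FOXO1 (top) and IKZF3 (bottom) in CPM in each library of the 3 knockdown lines, with the mean and SD beside the points. FOXO1 sh2 libraries are below NT in SEM and above it in RCH-ACV.

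Of the founding factors, EBF1 fell in SEM with both hairpins, TCF3 fell with sh2 and PAX5 was called with neither. EBF1 had 148, 167 and 174 CPM in sh2 and 162, 165 and 171 CPM in sh5 of SEM, against 214, 222 and 239 CPM in NT. Neither knockdown arm overlapped NT, and the log2 changes were −0.47 ± 0.06 (edgeR adjusted p = 4.37e-05) and −0.45 ± 0.06 (adjusted p = 1.22e-04). PAX5 in the same libraries had 558, 571 and 588 CPM in sh2 and 574, 597 and 574 CPM in sh5, against 564, 532 and 652 CPM in NT. It was the member not called with sh2 (−0.03 ± 0.07, adjusted p = 0.761), and with sh5 it changed by −0.01 ± 0.07 (adjusted p = 0.922).

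TCF3 had 373, 389 and 401 CPM in sh2, against 459, 424 and 473 CPM in NT of SEM, a log2 change of −0.23 ± 0.07 (edgeR adjusted p = 0.0248). Its sh2 call was lost without NT replicate 1 or 3 or sh2 replicate 1 or 2 (adjusted p 0.0546 to 0.0976). With sh5 it changed by −0.11 ± 0.07 (adjusted p = 0.335).

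POU2AF1 fell in SEM with both hairpins, and IKZF1 and LEF1 fell with sh2. POU2AF1 had 11.2, 13.4 and 15.6 CPM in sh2 and 11.4, 12.3 and 14.98 CPM in sh5, against 16.8, 17.0 and 19.5 CPM in NT, and changed by −0.42 ± 0.13 (edgeR adjusted p = 0.0203) and −0.47 ± 0.13 (adjusted p = 0.0139). The POU2AF1 calls were lost without NT replicate 3 or replicate 1 or 2 of the hairpin's arm (adjusted p 0.0569 to 0.0965 with sh2 and 0.0616 to 0.0674 with sh5). LEF1 changed by −0.30 ± 0.06 with sh2 (adjusted p = 0.00150) and IKZF1 by −0.25 ± 0.06 (adjusted p = 0.00467). With sh5 they changed by −0.15 ± 0.06 and −0.16 ± 0.06 (adjusted p = 0.105 and 0.0640). With the replicate block, by which the SEM libraries pair, both were called with sh5 (adjusted p = 0.0149 and 0.00693). That block called 32.8% of all genes with sh5, against 21.3% without it. The block also called LEF1 between sh2 and sh5 (−0.16 ± 0.04, adjusted p = 0.0152), where it called 20.7% of all genes, against 12.4% without it.

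In RCH-ACV 0 of 9 tested members were called with sh2 by edgeR (1.37% of all genes). By edgeR 3 members had an unadjusted p under 0.05, as did 3273 of all 17468 genes. DESeq2 called 2 of these 3, IRF8 and FOXO1 (4.84% of all genes were called). POU2AF1 was the third of those, at 175, 115 and 86.0 CPM in sh2, against 106, 61.8 and 52.8 CPM in NT. These arms overlapped, and the log2 change was 0.80 ± 0.34 (edgeR adjusted p = 0.242). With sh5 0 of 9 were called (0.0229% of all genes), 0 had an unadjusted p under 0.05 (706 of 17468 genes) and DESeq2 called 0 (0.53%). Between sh2 and sh5 0 of 9 were called (0% of all genes), with 2 at an unadjusted p under 0.05 (1714 of 17468 genes) and 0 called by DESeq2 (0.873%).

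Lists of genes around the members were counted in SEM, where all genes gave 13.5% higher and 14.4% lower with sh2 and 11.1% higher and 10.2% lower with sh5. Of 16 tested genes that EBF1 and PAX5 are known to activate, 3 were called higher and 5 lower with sh2, and 5 higher and 7 lower with sh5. The surrogate light chain genes were among the lower ones, with VPREB1 at 54.3 ± 2.22 CPM in sh2 and 59.1 ± 7.93 CPM in sh5, against 115 ± 12.8 CPM in NT, and IGLL1 at 105 ± 8.87 and 115 ± 17.8 CPM, against 212 ± 7.12 CPM in NT (SD, n = 3 each). VPREB3 changed by −1.71 ± 0.13 with sh2 (edgeR adjusted p = 1.02e-07). The kinase gene BLK changed by 0.44 ± 0.07 (adjusted p = 1.19e-04), and CD79A by 0.00 ± 0.06 (adjusted p = 0.997). The summed level of 7 B-cell markers was 548 to 571 CPM in sh2 and 527 to 566 CPM in sh5, against 633 to 672 CPM in NT of SEM. With sh2 in RS4;11, RAG2 and BLNK were called higher of 15 tested (1.67% of all genes were called), and in RCH-ACV MS4A1 of 16 (1.37%).

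Among FOXO family members and targets, 2 of 13 tested were called higher and 4 lower with sh2 in SEM, and 1 higher and 5 lower with sh5 (27.9% and 21.3% of all genes were called in either direction). IL7R, the interleukin-7 receptor, changed by −0.51 ± 0.05 with sh2 and −0.18 ± 0.05 with sh5 (edgeR adjusted p = 2.48e-06 and 0.0187). The sestrin genes went apart, with SESN3 at −1.77 ± 0.13 and SESN1 at 1.31 ± 0.06 with sh2 (adjusted p = 7.61e-08 and 4.58e-10). RS4;11 sh2 had the same pair called in these directions, at −1.24 ± 0.22 and 1.11 ± 0.19 (adjusted p = 0.0223 and 0.0332).

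Of 8 tested TCF/LEF family members and Wnt feedback targets, 0 were called higher and 3 lower in SEM with each hairpin (27.9% of all genes were called with sh2 and 21.3% with sh5), and LGR5, a Wnt target, was lower with both (−2.35 ± 0.21 and −0.90 ± 0.19, edgeR adjusted p = 6.70e-07 and 0.00299). Of 7 tested E protein partners and inhibitors, 2 were called higher and 2 lower with sh2, and 3 higher and 0 lower with sh5, against the same 27.9% and 21.3%. TCF4, the E protein E2-2, was at 1.31 ± 0.23 CPM in sh2 and 14.5 ± 1.59 CPM in sh5, against 6.66 ± 0.50 CPM in NT (SD, n = 3 each), and was called in opposite directions (−2.36 ± 0.15 and 1.11 ± 0.12, adjusted p = 1.64e-08 and 1.22e-05). LMO2, an E protein cofactor, rose with both (1.46 ± 0.06 and 1.72 ± 0.06, adjusted p = 1.75e-10 and 1.49e-10).

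Of 8 tested other IRF and ETS genes, 2 were called higher and 0 lower with sh2 in SEM, close to the 27.9% of all genes called, and 3 higher and 1 lower with sh5, SPIB being the lower one (−1.09 ± 0.13, edgeR adjusted p = 2.34e-05). Among 18 other regulators 3 were called higher and 5 lower with sh2, and 4 higher and 2 lower with sh5, against 27.9% and 21.3% of all genes called in either direction. The repressor BACH2 and the HMG factor SOX4 were lower with both, BACH2 by −1.47 ± 0.16 and −0.59 ± 0.15 (adjusted p = 8.72e-06 and 0.0144) and SOX4 by −0.80 ± 0.06 and −0.50 ± 0.06 (adjusted p = 1.19e-07 and 3.26e-05). No gene of these lists was called in Reh or 697, where few genes were called at all. For EK and WT versus EV the shares of all genes were 0.213% and 0.219% in Reh and 0.172% and 0.19% in 697.

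Across the 15 arms of the 5 lines, the genes whose mean log2(CPM + 1) was most like a member's, among 10494 genes, were GPX1 for IRF8 (Pearson r = 0.988), CLEC14A for IRF4 (0.991), MSI2 for FOXO1 (0.991) and ZNF608 for EBF1 (0.990). These are descriptions, with no test, since arms of 1 line share their cells.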

How the data were processed

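Per the labels' protocols, RNA was prepared with RNeasy kits, made into TruSeq stranded total RNA libraries with RiboZero Gold and read to 54 bases on a GAIIx. Per the submitters' processing notes, Trimmomatic, STAR, featureCounts and hg19 were used, with versions not given in the sources used here. The authors deposited raw read counts for Reh, RS4;11, RCH-ACV and SEM. For 697 the authors' deposited normalized counts were used, a signal equal to reads divided by 1 factor per library, and dividing by the value of 1 read returned whole reads for 100% of values within 0.001 reads. Reh symbols came from the authors' normalized table, whose recovered reads equalled the raw counts in all 57820 rows. The Reh tables hold 3 columns that match no sample and were not used. Date-like names in 27 rows of each knockdown table were left out (0.214%, 0.247% and 0.230% of reads in RS4;11, RCH-ACV and SEM). Totals per library were 23688482 to 27244031 in Reh, 40664735 to 57179806 in 697, 27767490 to 67651596 in RS4;11, 21876505 to 54879265 in RCH-ACV and 32508206 to 39468598 in SEM.

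For counts, the quasi-likelihood test of edgeR 4.0.16 (R 4.3.3) was used with robust dispersions, filterByExpr, TMM factors and the 3 arms of a line in 1 fit. For 697, limma 3.58.1 with a trended prior was run on log2(normalized count + 1), keeping mean values of 10 or more. The knockdown lines were also fitted jointly in edgeR, testing the mean change and, on 2 degrees of freedom, how it differed by line. Benjamini-Hochberg adjustment ran over all genes of a comparison, and an adjusted p under 0.05 was a call. Standard errors are the log2 change divided by the root of F. The steps were tested on simulated data. Alternatives tried were RLE and upper-quartile factors, DESeq2 1.42.0, other filters and pseudocounts, the 2 compared arms alone, edgeR on recovered 697 reads, the replicate number as a block and leaving out each library. The recovered-read fit with a block was added after seeing the data.

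Same-numbered libraries deviated together from their arm means in 697 (r 0.510 to 0.880), RS4;11 (0.362 to 0.708) and SEM (0.215 to 0.705), so the numbers were taken as pairing there. Motifs were searched on both strands. All 10 members were named, and up to 3 called genes per list with the smallest adjusted p, with any list gene as an example. The members and the 8 gene lists were chosen with earlier results of these data known. Python 3.11.15 with pandas and matplotlib made the tables and figures.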

Additional observations from a re-analysis of the deposited data

Results flagged for a closer look

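The change with an NSD2 hairpin differed between the 3 knockdown lines, by the joint edgeR test of that difference, for 3 genes with sh2 and 1 with sh5. For sh2 the adjusted p was 5.87e-06 for IRF4, 0.000187 for FOXO1 and 0.0131 for IKZF3. IRF4 changed by −1.17 ± 0.06 in SEM, −0.06 ± 0.09 in RS4;11 and 0.11 ± 0.15 in RCH-ACV on the log2 scale. FOXO1 changed by −1.08 ± 0.19 in SEM, 0.30 ± 0.15 in RS4;11 and 0.86 ± 0.19 in RCH-ACV. IKZF3 changed by −1.20 ± 0.20 in SEM and −0.94 ± 0.30 in RS4;11 with sh2, so its difference rests on RCH-ACV, with 8, 12 and 1 reads in sh2 and 3, 0 and 4 in NT. That call was lost without RCH-ACV sh2 replicate 1 (adjusted p = 0.0532) or 2 (0.108). For sh5 the adjusted p was 0.0108 for IKZF3, which changed by −1.61 ± 0.21 in SEM and 0.55 ± 0.29 in RS4;11, with 0 to 12 reads per RCH-ACV library, and the call was lost without SEM sh5 replicate 2 (adjusted p = 0.0511). The causes of these differences were not tested.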

How the results depend on the processing

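The number of members called changed by over 1.5 times under several alternatives, given here with the share of all genes called under the same alternative. In RS4;11 sh2 versus NT (1 call) it was 2 with DESeq2 (5.73%) and 3 with no low-count filter (3.37%), and in sh5 versus NT (0) it was 1 with no filter (1.52%). In RCH-ACV sh2 versus NT (0) it was 2 with DESeq2 (4.84%), 2 with no filter (4.93%) and 1 with the 2 compared arms alone (2.08%). Between sh2 and sh5 (0 each) it was 2 with DESeq2 (1.96%), 1 with upper-quartile factors (0.647%) and 2 with no filter (2.05%) in RS4;11, and 2 with no filter (1.79%) in RCH-ACV. The joint difference between lines gave 5 with no filter for sh2 (6.75%) and 0 for sh5 at 5 CPM or more (2.8%), a filter that IKZF3 does not pass, and the joint mean for sh5 gave 0 with upper-quartile factors (4.73%). Except where a filter removed a gene, the causes were not tested.

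With the replicate number as a block, where the numbers pair the libraries, 3 members were called in RS4;11 sh2 versus NT (14.5% of all genes). Between its hairpins 2 were called (9.06%). In 697 the block called no member. By limma it called 0.987% of all genes there in EK versus EV, 1.08% in WT versus EV and 0% in EK versus WT. In the joint fit the block gave 4 for the sh2 mean (22.9%), 6 for the sh2 difference (19.8%, against 3 members and 7.93% without it) and 2 for the sh5 difference (3.93%). That joint block also used the replicate numbers of RCH-ACV, for which pairing was not taken as given. In RCH-ACV, where same-numbered deviations correlated from 0.0444 to 0.769, the libraries share only a number, and the block called 3 members in sh2 versus NT (9.29%) and 2 between hairpins (1.96%). In Reh same-numbered deviations correlated at 0.757 to 0.815, but with 2 numbers pairing could not be decided. There the block called 1 member, IRF4, in EK versus EV (−0.72, adjusted p = 0.0164 by edgeR), where it called 6.43% of all genes, against 0.213% without it.

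With 1 library left out, member calls are given as ranges, each with the range of the share of all genes called. They ranged from 0 to 2 in RS4;11 sh2 versus NT (0.0636% to 8.94%) and 0 to 2 in RCH-ACV sh2 versus NT (0.0825% to 3.4%). In SEM they ranged from 7 to 9 with sh2 versus NT (22.4% to 27.6%) and 4 to 7 with sh5 versus NT (15.1% to 22.3%). Between hairpins in RS4;11 they ranged from 0 to 2 (0.115% to 4.7%). For the joint sh2 difference they ranged from 2 to 5 (5.24% to 14.6%). They ranged from 0 to 1 for the joint sh5 mean (3.74% to 5.68%) and 0 to 1 for the joint sh5 difference (1.19% to 1.91%). Leaving out a Reh library leaves an arm with 1 sample, which is then assumed to vary like the others.

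Of 2785 member values under all alternatives, 146 had the opposite sign, and 0 of these belonged to a called value. The 2785 include F values of the difference between lines, which have no sign and cannot reverse. With a filter of 5 CPM the log2 change became −0.00036 for LEF1 in Reh EK versus EV, −0.017 for LEF1 in Reh EK versus WT, −0.042 for POU2AF1 in RS4;11 sh2 versus NT and 0.024 for EBF1 in RCH-ACV sh2 versus NT. With upper-quartile factors it became −0.0032 for EBF1 and −0.053 for POU2AF1 in RS4;11 sh2 versus NT, 0.020 for EBF1 in RCH-ACV sh2 versus NT, −0.017 for LEF1 in Reh EK versus WT and −0.0026 for LEF1 in RS4;11 sh2 versus sh5. With no low-count filter it became −0.010 for LEF1 in Reh WT versus EV, 0.0042 for PAX5 in Reh EK versus WT and 0.00058 for IKZF1 in the sh5 mean, and DESeq2 gave −0.0038 for LEF1 in Reh WT versus EV. In 697 EK versus EV the recovered reads gave 0.0065 for EBF1 and 0.016 for LEF1, the same reads with a block gave 0.0042 and 0.015, and median centring gave 1.9e-05 for LEF1. The 2 compared arms alone gave 0.0030 for EBF1 in RCH-ACV sh2 versus NT.

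The other reversals came with 1 library left out, over which the log2 change had these ranges. In Reh EK versus EV it was −0.17 to 0.076 for PAX5, −0.17 to 0.13 for EBF1, −0.018 to 0.061 for TCF3, −0.47 to 0.10 for IRF8, −0.20 to 0.32 for POU2AF1, −0.036 to 0.075 for LEF1 and −0.14 to 0.16 for FOXO1. In Reh WT versus EV it was −0.18 to 0.084 for PAX5, −0.12 to 0.050 for IKZF1, −0.98 to 0.49 for IRF4, −0.038 to 0.27 for POU2AF1, −0.053 to 0.058 for LEF1 and −0.019 to 0.18 for FOXO1. In 697 EK versus EV it was −0.051 to 0.037 for EBF1, −0.14 to 0.19 for IKZF1, −0.0051 to 0.31 for POU2AF1 and −0.11 to 0.073 for LEF1. In 697 WT versus EV it was −0.14 to 0.19 for IKZF1, −0.00088 to 0.26 for POU2AF1 and −0.13 to 0.094 for LEF1. In RS4;11 sh2 versus NT it was −0.12 to 0.15 for POU2AF1 and −0.067 to 0.0034 for LEF1. In RS4;11 sh5 versus NT it was −0.069 to 0.038 for PAX5, −0.022 to 0.13 for IKZF1, −0.032 to 0.11 for IRF4 and −0.22 to 0.013 for POU2AF1. In RCH-ACV sh2 versus NT it was −0.18 to 0.11 for EBF1, −0.16 to 0.0056 for IKZF1 and −0.0052 to 0.27 for IRF4. In RCH-ACV sh5 versus NT it was −0.18 to 0.037 for PAX5, −0.19 to 0.10 for EBF1, −0.024 to 0.14 for IKZF1, −0.090 to 0.20 for IRF4, −0.14 to 0.54 for POU2AF1 and −0.16 to 0.048 for LEF1. In SEM sh2 versus NT it was −0.090 to 0.057 for PAX5. In SEM sh5 versus NT it was −0.069 to 0.078 for PAX5. In Reh EK versus WT it was −0.13 to 0.13 for PAX5, −0.27 to 0.027 for EBF1, −0.011 to 0.15 for IKZF1, −1.58 to 0.35 for IRF4, −0.059 to 0.59 for IRF8, −0.32 to 0.20 for POU2AF1, −0.011 to 0.048 for LEF1 and −0.22 to 0.071 for FOXO1. In 697 EK versus WT it was −0.062 to 0.27 for PAX5, −0.040 to 0.059 for TCF3, −0.16 to 0.15 for IKZF1, −0.0089 to 0.14 for IKZF3, −0.11 to 0.16 for POU2AF1, −0.10 to 0.12 for LEF1 and −0.046 to 0.15 for FOXO1. In RS4;11 sh2 versus sh5 it was −0.021 to 0.13 for TCF3, −0.026 to 0.15 for IKZF1, −0.019 to 0.26 for POU2AF1, −0.020 to 0.067 for LEF1 and −0.0036 to 0.29 for FOXO1. In RCH-ACV sh2 versus sh5 it was −0.25 to 0.020 for PAX5 and −0.14 to 0.17 for EBF1. In SEM sh2 versus sh5 it was −0.037 to 0.00083 for PAX5, −0.067 to 0.043 for EBF1 and −0.070 to 0.17 for POU2AF1. For the mean sh2 versus NT change of the 3 lines it was −0.070 to 0.032 for PAX5, −0.12 to 0.23 for IKZF3 and −0.0028 to 0.10 for FOXO1. For the mean sh5 versus NT change of the 3 lines it was −0.072 to 0.0083 for PAX5 and −0.033 to 0.022 for IKZF1. The cause of these was not tested.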
